A study of Homo sapiens with 6 samples.

Results

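The genes of the EGFR family were examined in SW480 cells, an established human colon carcinoma line, after knockdown of gankyrin. The set has 9 genes: the receptors EGFR, ERBB2 and ERBB3, the ligands AREG, EREG, HBEGF, TGFA and BTC, and the inhibitor ERRFI1. Its members were every probe set that the platform annotation pairs with 1 of these genes alone, a probe set being the group of short probes that together measure a stretch of transcript. The rule found 29 probe sets of 8 genes, among 41091 single-gene probe sets of 19775 genes on the array. AREG had no single-gene probe set in the annotation used here and was not analysed here. Of the 29 probe sets, 25 passed the filter on low signal (a mean log2 signal over 3.6), and each of the 8 genes kept at least 1.

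EGFR, ERBB2 and ERBB3 are receptor tyrosine kinases that work in pairs: a ligand bound outside the cell brings receptors together, and their kinase domains then phosphorylate each other and recruit adaptors that feed the MAP kinase and PI3 kinase cascades. ERBB2 has no known ligand of its own and serves as a partner, and ERBB3 has a weak kinase and signals mostly through partners. The ligands are made as membrane-bound precursors and released by metalloproteases. In the gut epithelium this signalling supports renewal and repair, and in colorectal cancer EGFR is the target of therapeutic antibodies.

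Total RNA was hybridised as biotin-labelled cRNA to 6 Affymetrix arrays. In 3 of them the cells had been given a non-targeting shRNA (control) and in the other 3 an shRNA against gankyrin (knockdown). Both were given for 4 days, and the sample titles name no other treatment. Every array came from the same line, so the comparison speaks for 1 line only, and nothing in the labels tells separate cultures from repeats of one culture, so p-values reflect variation among these arrays alone, part of which may be technical. Signals were deposited on a log2 scale, and a difference of 1 on that scale is a 2-fold change. PSMD10, the gene of gankyrin, went from a log2 signal of 10.19 ± 0.04 in control to 6.45 ± 0.14 in knockdown arrays (SD, n = 3 each), which matched the labels. NFIL3, named in place of gankyrin in 1 sentence of the series design, was at 9.33 ± 0.13 and 9.07 ± 0.05. NFIL3 was also called as lower, by a far smaller log2 difference of -0.26 ± 0.07 SE (limma adjusted p = 0.0281). Of 10 markers of colon epithelium, 7 lay above 4.54, the level that bounds 95% of 128 probe sets of tissue-restricted genes such as olfactory receptors; EPCAM and KRT18 were among them, while CDX2, CDH17 and GPA33 lay below it. The summed epithelial signal, most of it from KRT18 and EPCAM, was 14.15 to 14.20 in control and 14.07 to 14.11 in knockdown arrays on the log2 scale. Single markers moved apart: VIL1 (villin) rose by 0.82 ± 0.09 (log2 ± SE), while KRT20 fell by 0.66 ± 0.06 and KRT19 by 0.46 ± 0.07 (limma adjusted p = 0.000233, 0.000106 and 0.00111). Of other cell types, 3 of 7 fibroblast, 3 of 5 leukocyte and 1 of 5 endothelial markers lay above that level, with COL1A2, COL3A1, LUM, VWF, CDH5 and KDR below the filter. The summed leukocyte signal, which LYZ dominated, was 12.32 to 12.38 in control and 12.19 to 12.37 in knockdown arrays, and the endothelial sum 6.01 to 6.07 and 5.95 to 6.11. The summed signal of the fibroblast markers ran from 7.56 to 7.94 in control and from 7.98 to 8.01 in knockdown arrays on the log2 scale, with FAP higher by 0.84 ± 0.13 (log2 ± SE, limma adjusted p = 0.00193). The part of these markers in the results was not tested.

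Control replicate 3 stood apart from the other 5 arrays. On that array 875 of 32759 probe sets past the filter differed by over 1 on the log2 scale from every other array, 866 of them lower, against 0 for each other array. Control probe sets for the 3' and 5' ends of control transcripts also differed there: the 3' end exceeded the 5' end by 1.82 for ACTB, against 0.43 to 0.53 on the other arrays, and by 4.06 for ISGF3A, against 1.75 to 2.05. For GAPDH the difference was 0.56, against -0.11 to 0.00. The part of this array's RNA or labelling in the results was not tested, and values of members and named pathway genes that it moved by over 1.5 times, or whose sign or call it changed, are given with and without it.

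The members changed little after gankyrin knockdown. In bulk RNA, fewer cells with a transcript and less of it per cell cannot be told apart. ERRFI1, which binds the kinase domain of active EGFR family receptors and shuts them off, and the receptor ERBB2 fell, by 1.15-fold and 1.30-fold. EGFR, ERBB3 and the ligands EREG, HBEGF, TGFA and BTC did not pass the test. With each gene taken at its brightest probe set, 2 of 8 genes fell and 0 rose (limma, adjusted p under 0.05), and these were also the 2 at an unadjusted p under 0.05. Over all 14199 genes 22.5% were called, 14.3% as lower and 8.13% as higher, so the members' share was near the background and says nothing particular about them. The groups did not overlap for 2 of the 8 genes, against 40.3% of all genes. The median log2 difference, knockdown minus control, was -0.12 over the 8 genes and -0.02 over all genes.

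**Figure D1:**
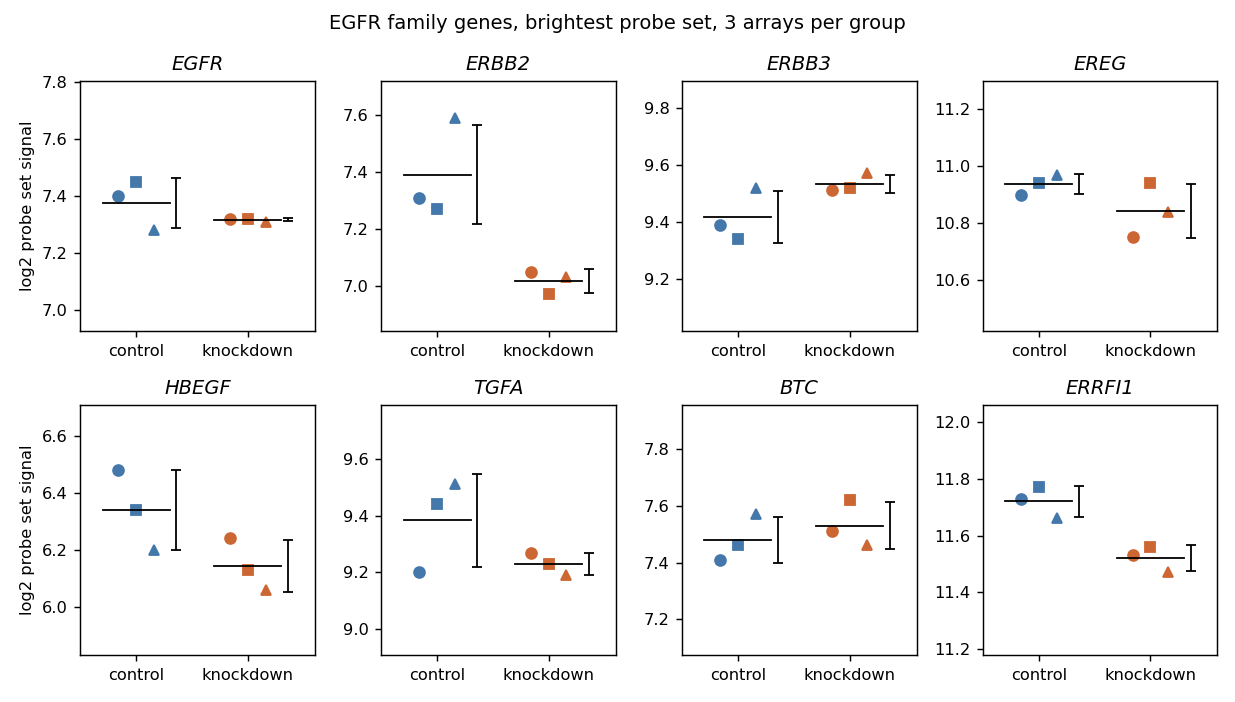
Log2 signal of the brightest probe set of each of the 8 measured genes on every array, with circles, squares and triangles for replicates 1, 2 and 3, control in blue and knockdown in orange; horizontal lines are group means, bars 1 SD (n = 3), and each panel spans the same height on the log2 axis. ERBB2 and ERRFI1 are the panels whose groups do not overlap, and the ERBB2 control spread comes from replicate 3 at 7.59.

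Promoter windows of the pair that fell are printed here because these are the members on which a call rests; they cover 250 bases before to 50 after the RefSeq start in GRCh38.p14 and read along the gene's strand. Capitals mark matches, on either strand, to 4 short motifs. They are GGGCGG (the GC box bound by SP1 family factors), TGANTCA (AP-1), GGAATG (TEAD) and TATAAA (the TATA box). The AP-1 pattern is a loose one, since its N takes any base. The TATA box pattern is a strict one, since only the exact letters TATAAA count. The first is ERRFI1 at chr1:8026260-8026559 on the minus strand and the second ERBB2 at chr17:39687844-39688143 on the plus strand.
ERRFI1: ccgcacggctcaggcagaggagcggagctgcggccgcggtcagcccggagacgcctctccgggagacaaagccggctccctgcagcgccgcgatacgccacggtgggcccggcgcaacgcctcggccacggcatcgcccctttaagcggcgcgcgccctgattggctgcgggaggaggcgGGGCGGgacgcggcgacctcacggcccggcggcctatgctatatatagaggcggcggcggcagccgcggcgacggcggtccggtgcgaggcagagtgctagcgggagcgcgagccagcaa
ERBB2: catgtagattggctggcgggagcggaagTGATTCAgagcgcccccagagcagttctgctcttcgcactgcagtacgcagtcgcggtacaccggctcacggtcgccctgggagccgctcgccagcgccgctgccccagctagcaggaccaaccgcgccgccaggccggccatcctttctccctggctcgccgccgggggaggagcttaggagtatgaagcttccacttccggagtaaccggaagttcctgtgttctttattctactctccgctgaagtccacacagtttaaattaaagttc

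The ERRFI1 window held 1 GC box, which starts 70 bases before the start site, and no exact match to the other motifs. It does hold the run tatatata, which the strict TATAAA pattern does not count. Its GC content was 74.7%. The ERBB2 window held 1 match to the loose AP-1 pattern (TGATTCA), 222 bases before the start. It had no GC box and a GC content of 60.7%. Among 35116 RefSeq promoter windows of this length the median GC content was 58.7%, and 45.0% held a GC box, 7.71% an AP-1 match, 14.0% a TEAD match and 11.5% a TATA box. RefSeq windows were at hand for 8 of the 9 genes, all but ERBB3. Of the ligands, EREG and AREG each had a TATA box close to the start, 32 and 29 bases before it, and HBEGF had 5 GC boxes and no TATA box. The windows printed for the fallen pair thus shared none of these motifs, and a match is a description of the letters only. Whether SW480 cells start transcripts at these sites was not tested, and other start sites of either gene were not examined.

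ERRFI1, also known as MIG6, is itself induced by EGFR signalling and so closes a feedback loop. Its single probe set gave log2 signals of 11.73, 11.77 and 11.66 on the control arrays and 11.53, 11.56 and 11.47 on the knockdown arrays, in the order of replicates 1 to 3 here and throughout. Every knockdown array lay below every control array. The log2 difference was -0.20 ± 0.04 SE (limma, 95% interval -0.30 to -0.10, adjusted p = 0.0097). By exact permutation of the arrays, two-sided, p was 0.1, the smallest that 3 against 3 arrays allow. Leaving out knockdown replicate 3 ended the call (limma adjusted p = 0.0537) as did a variance prior with no intensity trend (0.0744). It did not rest on control replicate 3: without that array the difference was -0.23 ± 0.04 (limma adjusted p = 0.000389). ERRFI1 was also the member of smallest p, and the 3 genes with the nearest profile over the 6 arrays, by Euclidean distance after each gene was centred on its mean, were AP4B1 (a subunit of an adaptor complex of vesicle coats), SSR3 (a subunit of the translocon-associated complex of the endoplasmic reticulum) and SLC25A24 (a mitochondrial carrier), at log2 distances of 0.030, 0.044 and 0.054 among 14191 genes.

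ERBB2, known as HER2, had 2 probe sets past the filter, and they did not move alike. The brighter one (216836_s_at) read 7.31, 7.27 and 7.59 in control and 7.05, 6.97 and 7.03 in knockdown arrays. The knockdown arrays were all lower, and control replicate 3 was the highest of the 6. The log2 difference was -0.37 ± 0.10 SE (limma, 95% interval -0.59 to -0.16, adjusted p = 0.0207), with an exact two-sided permutation p of 0.1. Without control replicate 3 the difference shrank to -0.27 ± 0.07 and still passed (limma adjusted p = 0.00743). Leaving out knockdown replicate 1, 2 or 3 ended the call (limma adjusted p = 0.065, 0.087 and 0.072). The dimmer probe set (210930_s_at) read 4.49, 4.46 and 3.21 in control and 4.70, 4.64 and 4.38 in knockdown arrays, and its groups overlapped. Its difference was 0.52 ± 0.33 and, without control replicate 3, 0.10 ± 0.12. With the probe sets of the gene averaged, ERBB2 was at 0.07 (limma adjusted p = 0.746). The control mean of the dimmer probe set, 4.05, lay below 4.54, and the average takes in its low value on control replicate 3. The third probe set (234354_x_at) lay below the filter, at means of 2.39 in control and 2.47 in knockdown arrays.

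EGFR, the receptor that gives the family its name, was measured by 9 probe sets, all past the filter, and none was called. The brightest (201984_s_at) read 7.40, 7.45 and 7.28 in control and 7.32, 7.32 and 7.31 in knockdown arrays. The knockdown values lay inside the control range, with a log2 difference of -0.06 ± 0.08 SE and a 95% interval from -0.23 to 0.11 (limma adjusted p = 0.625), and -0.11 ± 0.07 without control replicate 3. The other EGFR probe sets pointed both ways. On 224999_at the signal was 6.17, 6.25 and 6.38 in control and 5.99, 6.02 and 5.83 in knockdown arrays, a difference of -0.32 ± 0.10 in which the groups did not overlap (limma adjusted p = 0.0845 over all probe sets). On 211607_x_at it was 4.82, 4.70 and 4.21 in control and 5.32, 4.88 and 5.12 in knockdown arrays, a difference of 0.53 ± 0.18 (limma adjusted p = 0.113), and 210984_x_at went the same way by 0.39 ± 0.17 (0.197). Control replicate 3 was the lowest array on both of the latter; without it their differences were 0.35 ± 0.13 and 0.19 ± 0.11. When _x_at and _s_at probe sets, whose probes can match more than 1 transcript, were passed over, 224999_at stood for EGFR and passed at the gene level (limma adjusted p = 0.0437). The remaining 5 probe sets differed by -0.18 to 0.18, and by -0.07 to 0.37 without control replicate 3, and the lowest pair of them, 211551_at and 211550_at, had means below 4.54.

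ERBB3, known as HER3 and a main link from the family to PI3 kinase, was slightly higher on its brightest probe set (226213_at), without passing. It read 9.39, 9.34 and 9.52 in control and 9.51, 9.52 and 9.57 in knockdown arrays. Control replicate 3 reached the knockdown values, so the groups overlapped, and the difference was 0.12 ± 0.06 SE (limma, 95% interval -0.02 to 0.25, adjusted p = 0.212). Without control replicate 3 the difference was 0.17 ± 0.05 and passed (limma adjusted p = 0.0176). The next probe set (202454_s_at) read 8.31, 8.33 and 8.70 in control and 8.44, 8.38 and 8.38 in knockdown arrays, a difference of -0.05 ± 0.11, or 0.08 ± 0.06 without that array. The third (1563253_s_at) had the widest swing of any member: 6.52, 6.43 and 4.35 in control against 6.66, 6.68 and 6.72 in knockdown arrays. Its difference of 0.92 ± 0.53 came mostly from control replicate 3 and was 0.21 ± 0.08 without it (limma adjusted p = 0.0739). The 2 other ERBB3 probe sets lay below the filter.

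**Figure D2:**
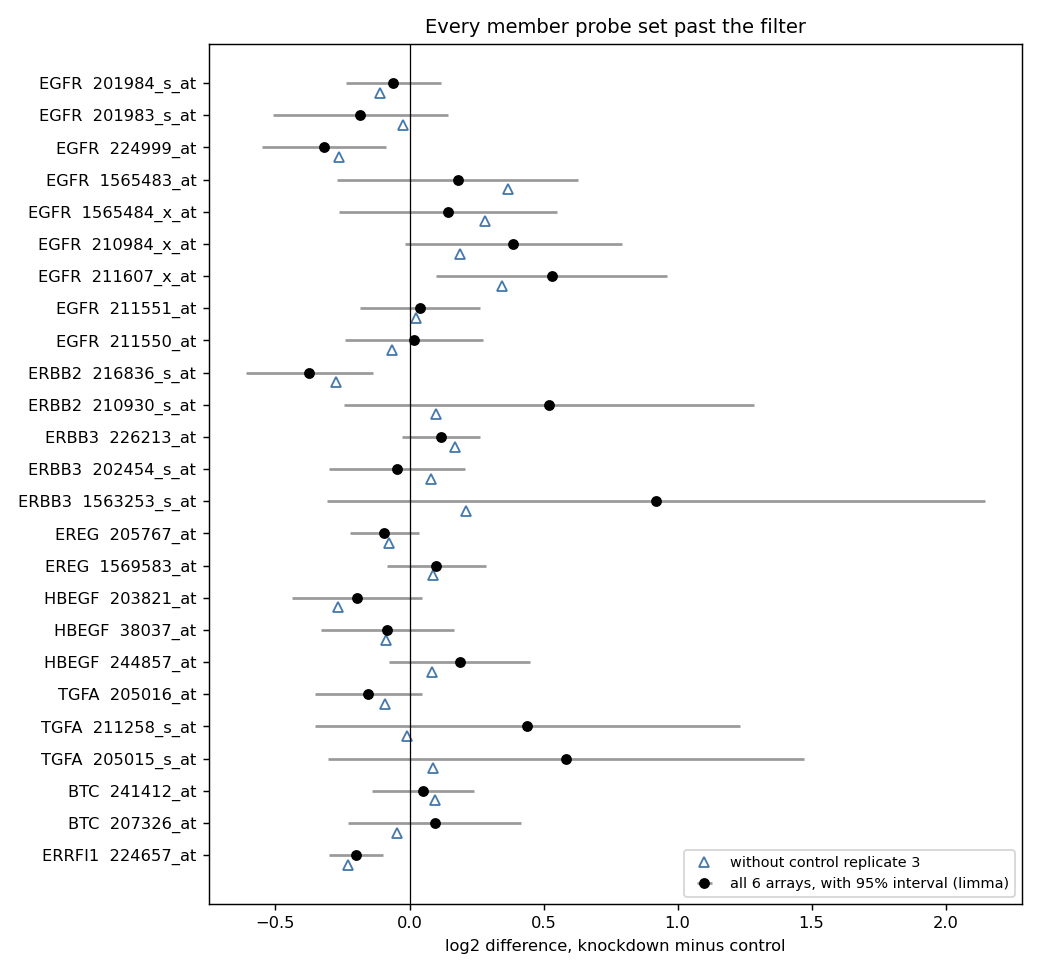
Log2 difference, knockdown minus control, for the 25 member probe sets past the filter: black points with 95% limma intervals use all 6 arrays, and blue open triangles leave out control replicate 3. Only ERRFI1 passed among these 25 probe sets; the widest intervals, on probe sets of ERBB2, ERBB3 and TGFA, belong to differences that move towards 0 without that array.

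Among the ligands, 0 of 4 measured genes were called, and 0 had an unadjusted limma p under 0.05. EREG (epiregulin), a ligand of EGFR that colorectal tumours often express, read 10.90, 10.94 and 10.97 in control and 10.75, 10.94 and 10.84 in knockdown arrays on its brighter probe set. The groups overlapped at 10.94, and the difference was -0.09 ± 0.05 SE with a 95% interval from -0.21 to 0.03 (limma adjusted p = 0.254). Its second probe set (1569583_at) was at 0.10 ± 0.08, the opposite sign. The lower bound of the interval on the brighter probe set is a decrease by 0.21 on the log2 scale.

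TGFA (transforming growth factor alpha), a ligand of EGFR, read 9.20, 9.44 and 9.51 in control and 9.27, 9.23 and 9.19 in knockdown arrays. Control replicate 1 lay among the knockdown values while the other control arrays lay above them, and the difference was -0.15 ± 0.08 SE (limma, 95% interval -0.33 to 0.03, adjusted p = 0.205). Without control replicate 1 TGFA passed, at -0.25 ± 0.06 (limma adjusted p = 0.0266), and without control replicate 3 it was at -0.09 ± 0.06. Both of its dimmer probe sets were far lower on control replicate 3 than elsewhere: 211258_s_at read 7.10, 7.18 and 5.79 in control against 7.20, 7.14 and 7.05 in knockdown arrays, and 205015_s_at read 6.27, 6.62 and 4.96 against 6.57, 6.59 and 6.44. With that array their differences were 0.44 ± 0.34 and 0.58 ± 0.38; without it they were -0.01 ± 0.08 and 0.09 ± 0.10.

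HBEGF (heparin-binding EGF-like growth factor), a ligand of EGFR and ERBB4, read 6.48, 6.34 and 6.20 in control and 6.24, 6.13 and 6.06 in knockdown arrays. The groups overlapped only through control replicate 3, and the difference was -0.20 ± 0.10 SE (limma, 95% interval -0.42 to 0.03, adjusted p = 0.191). Without control replicate 3 it was -0.27 ± 0.09 and passed (limma adjusted p = 0.0308). Past the filter HBEGF had 2 dimmer probe sets, with differences of -0.08 ± 0.11 and 0.19 ± 0.11 (-0.09 and 0.085 without control replicate 3), and a last one (222076_at) lay below it. BTC (betacellulin), another ligand of EGFR and ERBB4, read 7.41, 7.46 and 7.57 in control and 7.51, 7.62 and 7.46 in knockdown arrays, with interleaved groups and a difference of 0.05 ± 0.08 SE (limma, 95% interval -0.13 to 0.23, adjusted p = 0.703). Its second probe set was at 0.09 ± 0.14. Without control replicate 3 the pair were at 0.095 and -0.05.

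Taken probe set by probe set, 1 of the 25 passed, ERRFI1 (limma adjusted p = 0.0295 over 32759 probe sets), against 10.6% of all probe sets, and 4 had an unadjusted p under 0.05. The groups did not overlap for 6 of the 25, 3 lower and 3 higher, against 35.5% of all probe sets. The 4 member probe sets over 1 log2 unit from all other arrays on control replicate 3, all lower, were 1 each of ERBB2 and ERBB3 and 2 of TGFA, and each was a dimmer probe set of its gene. The brightest probe sets of the same genes were higher on that array than the mean of control replicates 1 and 2, by 0.30 for ERBB2, 0.16 for ERBB3 and 0.19 for TGFA. Without control replicate 3, 3 of the 25 passed (ERRFI1 and ERBB2 lower, ERBB3 higher on 226213_at), against 21.7% of all probe sets, and at the gene level 4 of 8 passed, ERRFI1, ERBB2 and HBEGF lower and ERBB3 higher, against 29.3% of all genes.

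**Figure D3:**
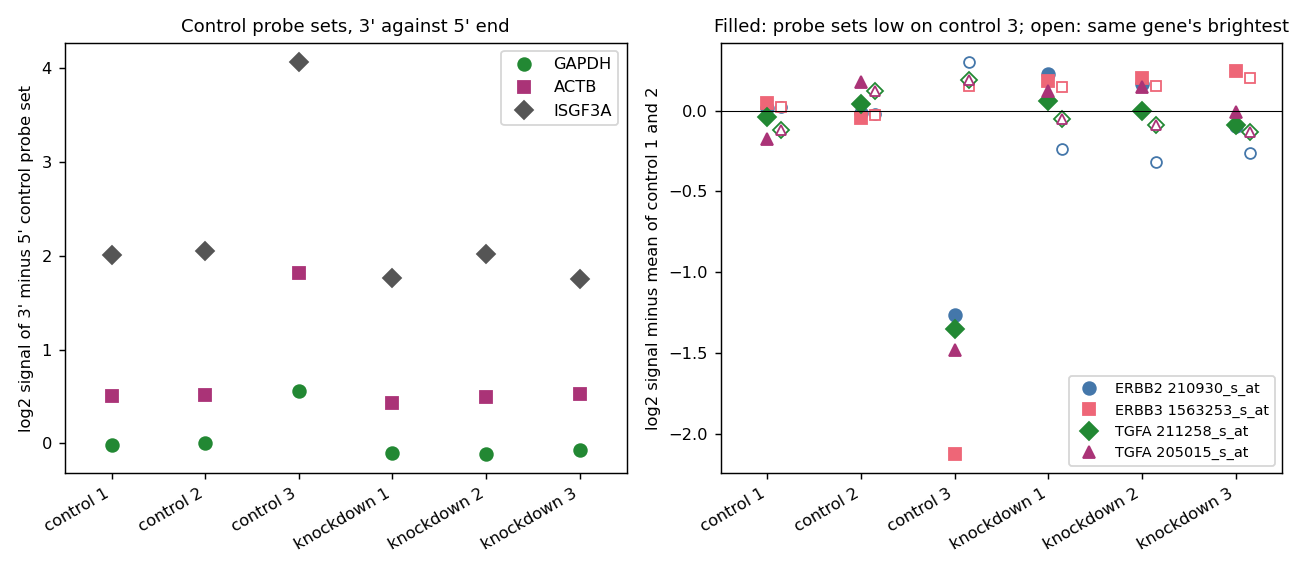
Left, log2 signal of the 3' control probe set minus the 5' one for GAPDH, ACTB and ISGF3A on each array; right, log2 signal minus the mean of control replicates 1 and 2 for the 4 member probe sets that were over 1 lower on control replicate 3 (filled) and for the brightest probe set of the same gene (open, same symbol). On control replicate 3 the ACTB difference is 1.82 and the filled points lie at -1.27 to -2.13, while the open points lie above 0.

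The rest of the pathway was described from lists of 91 genes by role, of which 77 were measured. Of these 77, 6 rose and 21 fell, or 35.1% called against 22.5% of all genes, with a median log2 difference of -0.12 against -0.02. With the lowest 60% of probe sets left out, 30 of 74 were called, against 29.5% of all genes. The lists were chosen with earlier results of these data known, so a share above that of all genes cannot be read as a trait of the pathway. The count of calls was 16 or 17 when any 1 knockdown array was left out and 33 without control replicate 3, where 12.2% to 12.3% and 29.3% of all genes were called. Of the 6 further family members with a probe set, only NRG1 passed the filter, at 0.03 ± 0.14 (limma adjusted p = 0.901), or 0.10 ± 0.15 without control replicate 3.

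Of 9 measured genes that release the ligands, 2 fell and 1 rose, where 14.3% of all genes fell and 8.13% rose. ADAM9, a membrane metalloprotease, read 10.84, 10.83 and 10.81 in control and 9.81, 10.11 and 10.06 in knockdown arrays, a 1.78-fold fall (log2 difference -0.83 ± 0.07 SE, limma adjusted p = 7.18e-05). Its second probe set was at -0.43, and with the probe sets averaged ADAM9 did not pass (limma adjusted p = 0.06). RHBDF2 (iRhom2), which escorts the protease ADAM17 to the cell surface, fell by 0.44 ± 0.10, a call that ended when knockdown replicate 2 was left out (limma adjusted p = 0.062). RHBDL2, a rhomboid protease, rose by 0.80 ± 0.22, a call lost when any 1 knockdown array was left out (limma adjusted p = 0.0506 to 0.114). Its rise was 0.50 without control replicate 3 (limma adjusted p = 0.00319), 0.57 with its 3 probe sets averaged and 0.47 when _x_at and _s_at probe sets were passed over. ADAM17, the main sheddase of AREG, TGFA and HBEGF, read 7.31, 7.56 and 8.0 in control and 7.5, 7.48 and 7.47 in knockdown arrays and did not pass, at -0.14 ± 0.14, or 0.05 ± 0.08 without control replicate 3. ADAM10, which sheds BTC, was at -0.15 ± 0.06 and did not pass, but did without control replicate 3, at -0.17 ± 0.05 (limma adjusted p = 0.0196). The median of the list was -0.12, and -0.06 without control replicate 3.

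Of 18 measured adaptors and kinases of the cascade, 5 fell and 2 rose, where 14.3% of all genes fell and 8.13% rose. The median of the list was -0.15, against -0.02 over all genes. PIK3R1, the regulatory subunit of PI3 kinase, rose from 7.59, 7.55 and 7.56 to 8.28, 8.47 and 8.38, by 0.81 ± 0.07 on the log2 scale (limma adjusted p = 8.4e-05), and 3 of its 3 probe sets passed. They ran from 0.38 to 0.81 and averaged 0.60, and the rise was 0.38 when _x_at and _s_at probe sets were passed over. STAT3 was at -0.41 ± 0.09 and PLCG1 (phospholipase C gamma 1) at -0.50 ± 0.10, both past the threshold, although the second PLCG1 probe set was at 0.01. EPS8, an EGFR substrate, rose by 0.23 ± 0.06, a call lost when any 1 knockdown array was left out (limma adjusted p = 0.0546 to 0.102). The falls of MAP2K1 (-0.18 ± 0.06), the adaptor GRB2 (-0.18 ± 0.06) and SRC (-0.43 ± 0.14) were close to the threshold, at limma adjusted p-values of 0.0424, 0.0476 and 0.0495, and each was lost when any 1 knockdown array was left out (0.124 to 0.138). Without control replicate 3 SRC was at -0.24 (limma adjusted p = 0.0116). With its 6 probe sets averaged SRC was at 0.49, the opposite sign. GRB2, averaged over its 3 probe sets, was at -0.07 (limma adjusted p = 0.518). The number of falls in the list was 2 when any 1 knockdown array was left out, 3 without control replicate 1 or 2, and 8 without control replicate 3. Over all 14199 genes, 2035 fell with all arrays and 1071 to 1130 without any 1 knockdown array. Without control replicates 1, 2 and 3 the falls over all genes were 2180, 1624 and 2353.

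Of 24 measured genes of receptor turnover and inhibition, 4 fell and 2 rose, or 25.0% called, near the 22.5% of all genes, with a median of -0.10. CBL, the ubiquitin ligase that marks active EGFR for breakdown, read 8.32, 8.32 and 8.49 in control and 8.03, 7.93 and 7.83 in knockdown arrays, a fall of 0.45 ± 0.08 SE (limma adjusted p = 0.00377). Only 2 of the 5 CBL probe sets were below 0, and averaged they were at -0.09 (limma adjusted p = 0.418). LRIG2, a leucine-rich repeat membrane protein, fell by 0.56 ± 0.10; its second probe set was at -0.13, and averaged they were at -0.34 (limma adjusted p = 0.00884). PTPRK, a receptor tyrosine phosphatase that acts on EGFR, and STAM2, an endosomal sorting adaptor, each rose by 0.38, with SE of 0.06 and 0.07; averaged over its 2 probe sets PTPRK did not pass (limma adjusted p = 0.164). HGS and RAB7A, which carry receptors on towards the lysosome, were at -0.19 ± 0.06 and -0.20 ± 0.06 and lost their calls when any 1 knockdown array was left out (limma adjusted p = 0.0978 to 0.165); RAB7A was at 0.21 when _x_at and _s_at probe sets were passed over. The number of falls was 2 without control replicate 2 and when any 1 knockdown array was left out. It was 4 without control replicate 3 and 5 without control replicate 1. Falls over all 14199 genes were 2035 with all arrays and 1624 without control replicate 2. They were 1071 to 1130 without any 1 knockdown array, and 2353 and 2180 without control replicates 3 and 1.

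**Figure D4:**
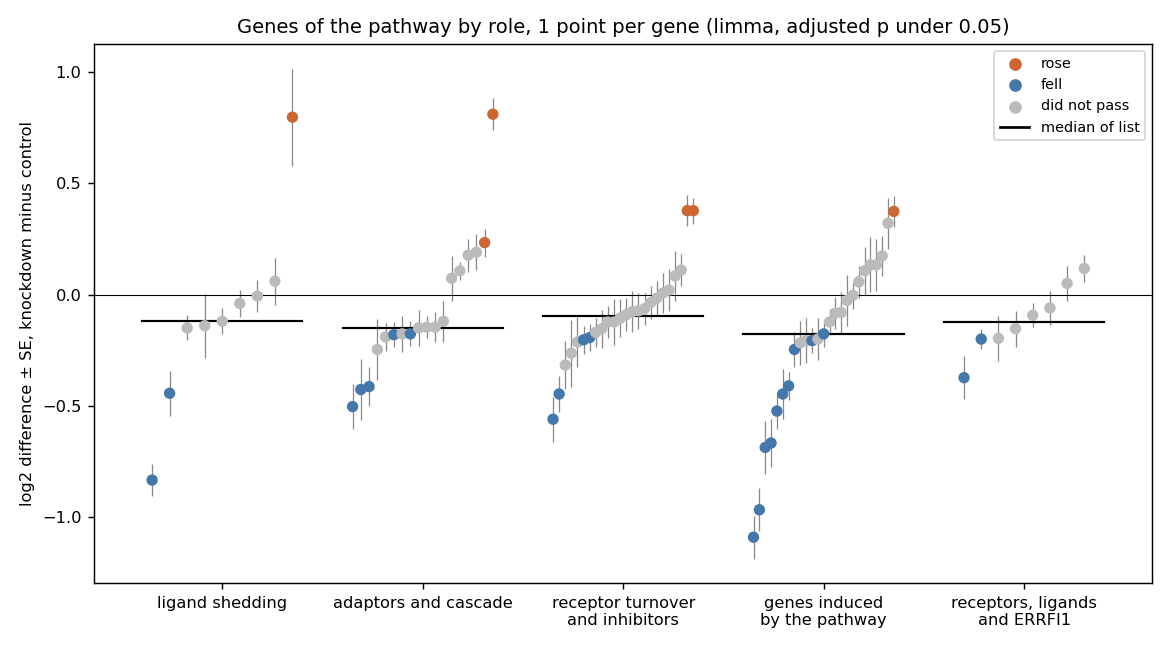
Log2 difference, knockdown minus control, of each measured gene by role, with SE bars (limma), the list's median as a black line, and colour for genes that rose, fell or did not pass at an adjusted p under 0.05. The receptors, ligands and ERRFI1 lie between -0.37 and 0.12, and the deepest falls are those of CCND1 and FOSL1 among the induced genes.

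Genes that EGFR signalling is known to induce held the deepest falls among the listed pathway genes. Of 25 measured, 10 fell and 1 rose, where 14.3% of all genes fell and 8.13% rose. The median was -0.18 against -0.02 over all genes, and -0.08 against -0.003 without control replicate 3. Whether EGFR signalling had a part in these falls was not tested. CCND1 (cyclin D1) read 7.74, 7.89 and 8.09 in control and 6.82, 6.88 and 6.75 in knockdown arrays, a 2.13-fold fall (log2 difference -1.09 ± 0.10 SE, limma adjusted p = 7.91e-05), and its second probe set was at -0.59. FOSL1, an AP-1 subunit, fell by 0.97 ± 0.10 and the cytokine LIF by 0.67 ± 0.11. EPHA2, an ephrin receptor, fell by 0.52 ± 0.08. PHLDA1, a pleckstrin-homology protein, fell by 0.41 ± 0.06 on its brightest probe set and lay between -1.0 and -0.18 over 6. These 5 calls held under each of the 15 alternatives. FOSL1, EPHA2 and LIF each had 1 probe set past the filter, so the choice of probe set could not change their differences. ATF3, a stress-induced transcription factor, rose by 0.37 ± 0.07 (limma adjusted p = 0.00484), but not with probe sets averaged (0.0784) or with _x_at and _s_at ones passed over (0.07). The immediate early genes EGR1 and FOS, at 0.13 ± 0.12 and 0.11 ± 0.11, and DUSP6, at -0.08 ± 0.09, did not pass. Without control replicate 3 they were at 0.02 ± 0.08, 0.01 ± 0.09 and 0.01 ± 0.07. Genes of the same kinds were among the falls. DUSP4 was at -0.69 ± 0.12 and DUSP5 at -0.45 ± 0.11 (limma adjusted p = 0.00301 and 0.0192). IER2, JUNB and IER3 were at -0.21 ± 0.05, -0.25 ± 0.08 and -0.18 ± 0.06 (limma adjusted p = 0.0229, 0.0466 and 0.0494). The number of falls was 6 without control replicate 2 and without knockdown replicate 1 or 3. It was 8 without knockdown replicate 2, 10 without control replicate 3 and 12 without control replicate 1. Falls over all 14199 genes also varied, from 2035 with all arrays. They were 1624 without control replicate 2, and 1104, 1130 and 1071 without knockdown replicates 1, 2 and 3. Without control replicates 3 and 1 they were 2353 and 2180.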

How the data were processed

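The series holds 6 one-colour arrays of SW480 cells, 3 per group, grouped and numbered by their titles. The authors deposited log2 probe set signals, already on 1 scale (array medians 4.20 to 4.25); that scale was inferred from the values. The tool was MAS5, per the submitters' processing notes; its role and version and the genome build were not given in the sources used here. Low signals scatter less between arrays than logged MAS5 signals usually do, so how the probes were summarised is uncertain. Probe sets were named through the platform annotation and Entrez identifiers matched to RefSeq (GRCh38.p14): 41091 had 1 gene, 1801 several and 11721 are unnamed here. The 62 control probe sets and the lowest 40% by mean over the 6 arrays were left out. Genes were represented by their brightest single-gene probe set, and probe sets were also tested singly. The contrast was fitted by limma (version 3.58.1, R version 4.3.3) with lmFit and a trended eBayes prior; p-values are two-sided, Benjamini-Hochberg adjusted over every feature tested, and called under 0.05. Intervals are 95%. The number of arrays limits the precision, and no detection calls were used. The pipeline was tested on simulated data. Named were the 9 members, PSMD10, NFIL3 and, of each role list, called genes, at most 5 of smallest p in each direction. ADAM10, ADAM17, EGR1, FOS, DUSP4, DUSP5, DUSP6, IER2, IER3, JUNB and the cell type markers were named after their values were seen. Members and lists were chosen with earlier results of these data known. Alternatives varied the filter, the choice of probe set, the variance prior, the scaling, the replicate block and each array in turn.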

Additional observations from a re-analysis of the deposited data

How the results depend on the processing

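Of the 8 member genes, 2 were called in the main setting; 1 was called with probe sets averaged, 1 with no intensity trend, and 0 to 4 when an array was left out (0 without knockdown replicate 3, where 2 had an unadjusted limma p under 0.05; 4 without control replicate 3). With probe sets averaged ERBB2 turned to 0.073. Of the 25 member probe sets, 1 was called; 2 were called with the lowest 60% of probe sets left out or a robust prior, 0 with no intensity trend or median centring (4 at an unadjusted limma p under 0.05 in each), and 0 to 3 with an array left out. Of the 77 measured pathway genes, 27 were called, 17 with no intensity trend and 16 to 33 with an array left out. The share of all genes called moved too: 22.5% in the main setting, 16.9% with probe sets averaged and 17.7% with no intensity trend. With an array left out it was 12.2% to 29.3%. Of all probe sets, 10.6% were called in the main setting and 21.7% without control replicate 3. Causes were not tested, beyond fewer arrays or features where these were left out. With a replicate block, 2 member genes, 1 member probe set and 22 pathway genes were called, against 21.5% of all genes. Deviations of same-numbered arrays correlated at 0.02, 0.11 and -0.01 across genes. A pairing by number was thus not visible, but 3 arrays per group cannot exclude it. The counts not named here were within 1.5 times the main ones. The number of arrays limits what small differences can be shown.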
